A study of Rattus norvegicus with 4 samples.

Results

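This account describes genes of vesicle traffic in rat testis as vitamin A was restored to deficient animals. The members were taken by gene symbol. They are genes named Rab, Stx, Vamp, Snap, Syt or Arf with a number, names starting with Stxbp, Copb or Copg, adaptor subunits named Ap1, Ap2 or Ap3 with a letter, and Nsf, Napa and Napb. The rule found 80 genes, read by 115 probe sets, among the 4736 genes and 7006 probe sets that carry a single gene symbol on the array. A probe set is a group of short oligonucleotides that together read 1 transcript. Of these 80 genes, 28 encode Rab GTPases, 13 synaptotagmins, 9 adaptor subunits, 8 syntaxins and 6 Arf GTPases. There were 4 each of VAMPs and genes with a Snap symbol, and 2 each of NSF with its adaptor, syntaxin binding proteins, COPI coat subunits and Rab effectors.

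Rats were put on a diet lacking vitamin A at 20 days of age, and after 9 weeks they were given retinol. Whole testis was profiled on an Affymetrix array in deficient animals without retinol (VAD, 0 h) and in deficient animals at 4, 8 and 24 h after retinol, from 10 micrograms of total RNA. All 4 groups therefore share the deficient diet, and none was fed vitamin A throughout. Each group is 1 deposited sample, called an array here. The sources used here state neither the strain, nor the number of animals behind a sample, nor the route of dosing.

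Membrane cargo moves between compartments in vesicles. Coat proteins (COPI at the Golgi, clathrin with adaptor complexes at the Golgi, endosomes and plasma membrane) pinch vesicles off, and Arf GTPases recruit those coats. Rab GTPases mark each compartment and bring in tethers and motors. SNARE proteins on the vesicle (VAMPs) and on the target membrane (syntaxins and the SNAP-25 family) then zip together and fuse the membranes. Synaptotagmins make fusion respond to calcium, and the ATPase NSF with its adaptor alpha-SNAP pulls used SNARE bundles apart. In testis this machinery serves secretion and membrane turnover in Sertoli cells and hormone-producing cells, and it builds the acrosome, the large secretory vesicle of the sperm head.

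The deposited values are linear ratios per probe set, centred near 1, with no signal level. A bright transcript cannot be told from a dim one, and the presence of testis markers cannot be read from them. A gene's value was the mean of log2 ratios over its probe sets, and a change is the log2 difference between 2 arrays, so 1 is 2-fold. With 1 array per group there is no test between groups, and no p-value is given. The error at hand is the disagreement between probe sets of the same gene that come from different database sequences (1083 genes). For 1 probe set it amounts to an SD of 0.43, 0.51 and 0.57 for changes at 4, 8 and 24 h against VAD. Between retinol arrays it is 0.33 for 8 h against 4 h, 0.32 for 24 h against 8 h and 0.38 for 24 h against 4 h. It leaves out the spread between animals. The comparisons with VAD all share the VAD array. In whole tissue, fewer cells of a type and less RNA per cell cannot be told apart.

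The members spread in both directions, around medians near 0, while the middle of the transcriptome lay slightly below VAD. Member medians at 4, 8 and 24 h were 0.02, 0.00 and 0.04, beside -0.09, -0.12 and -0.12 over all genes. The SD of member changes was 0.36, 0.50 and 0.52, beside 0.41, 0.49 and 0.52 over all genes. At each time the member SD was below that of 1 probe set (0.43, 0.51 and 0.57), so small changes of single members lie within the error at hand. At 4 h 42 of 80 members were above VAD (52.5%), where 38.8% of all genes were. At 8 h it was 41 members (51.2%, all genes 38.5%) and at 24 h 43 members (53.8%, all genes 40.0%). Members above VAD on all 3 retinol arrays numbered 31 (38.8%, beside 24.6% of all genes), and 25 were below VAD on all 3 (31.2%, beside 45.8%). With each array centred on the median of all genes these counts were 41 and 21, beside 34.8% and 35.0% of all genes.

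No member reached 2-fold at 4 h, a size that 1.41% of all genes passed upward and 1.25% downward. At 8 h 7 members were at least 2-fold higher (8.75%, beside 2.83% of all genes): Syt2, Rab7a, Arf3, Nsf, Rab8a, Rab27a and Stx5. None was 2-fold lower at 8 h, beside 1.88% of all genes. At 24 h 4 of these, Rab7a, Syt2, Rab8a and Arf3, were still past 2-fold (5.0% of members, beside 3.27% of all genes). The synaptotagmin genes Syt12 and Syt1 were then at least 2-fold lower (2.5%, beside 2.64%). The 24 h shares lie near those of all genes. At a smaller size of 1.5-fold, 8, 13 and 16 members were higher at 4, 8 and 24 h, beside 6.17%, 8.53% and 8.99% of all genes. In the other direction 1, 3 and 4 members were 1.5-fold lower, beside 6.63%, 12.3% and 14.1% of all genes.

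**Figure D1:**
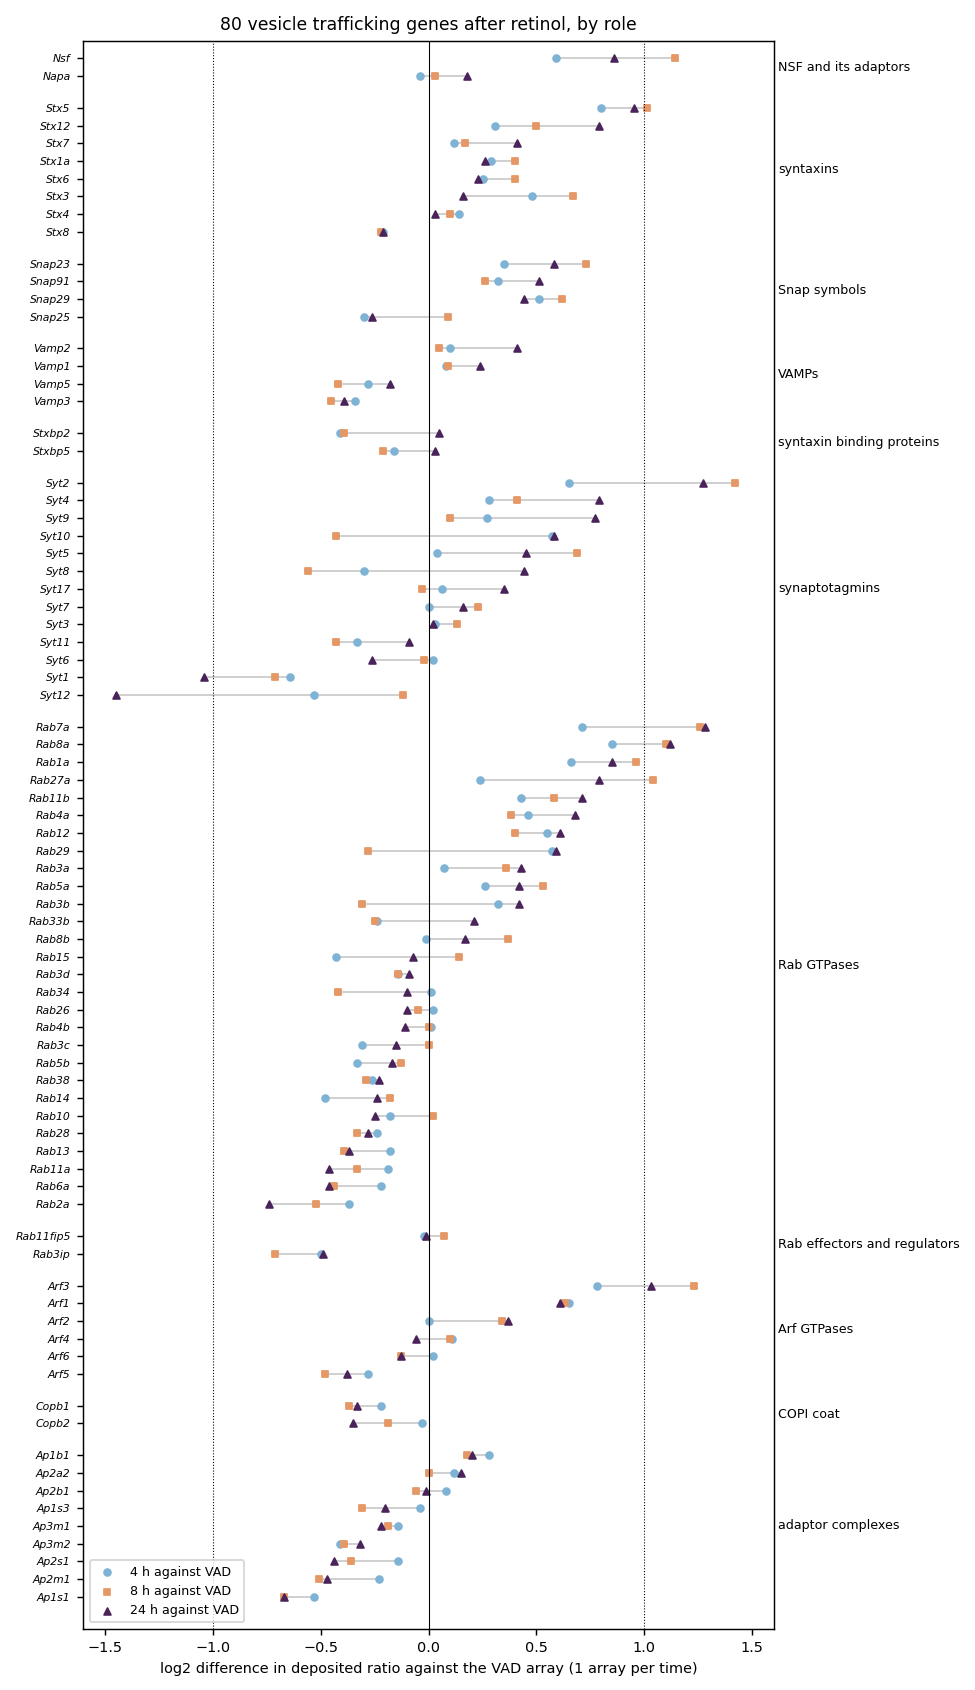
Log2 difference in deposited ratio against the VAD array (x axis) for each of the 80 members (rows, grouped by role), at 4 h (circles), 8 h (squares) and 24 h (triangles), with dotted lines at 2-fold. Each point is 1 array against 1 array. Syntaxins lie mostly right of 0 and adaptor subunits mostly left of it, while Rab GTPases and synaptotagmins spread to both sides.

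Among the genes of the fusion machinery, Nsf, which encodes the ATPase that takes SNARE bundles apart, had deposited ratios of 1.23, 1.84, 2.70 and 2.23 in VAD and at 4, 8 and 24 h. All 3 retinol arrays lay above VAD, with the highest value at 8 h. The differences were 0.59, 1.14 and 0.86. Both of its probe sets were above VAD each time, at 0.70 and 0.48 at 4 h, 1.53 and 0.74 at 8 h, and 0.95 and 0.77 at 24 h. Napa, the gene of alpha-SNAP, the adaptor that loads NSF onto SNAREs, was at -0.04, 0.03 and 0.18.

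Syntaxin genes, whose products sit on target membranes, lay above VAD in 7 of 8 cases at each time, beside 38.8%, 38.5% and 40.0% of all genes, with medians of 0.27, 0.40 and 0.25. Read against a ratio of 1 in place of VAD, their 8 h median was 0.16. No syntaxin gene was read by a probe set with the name prefix rc_. Over all genes, 46.1%, 46.0% and 48.6% of probe sets without that prefix lay above VAD at 4, 8 and 24 h. Stx5, which acts between endoplasmic reticulum and Golgi, had ratios of 0.744, 1.30, 1.49 and 1.44 in VAD and at 4, 8 and 24 h, so VAD was its lowest array. Its differences were 0.80, 1.01 and 0.95, but its 3 probe sets disagreed. At 8 h they read 2.57, 0.99 and -0.55, and the first of these had a VAD ratio of 0.408. Stx12, an endosomal syntaxin, had a mean of 0.79 at 24 h from probe sets at 2.08 and -0.50, again with 1 VAD ratio far below 1 (0.384). Stx3, of apical plasma membranes, was at 0.48, 0.67 and 0.16, highest at 8 h. Stx1a, the syntaxin of regulated secretion, was at 0.29, 0.40 and 0.26 with both probe sets above VAD at all 3 times. Stx6, Stx7 and Stx4 were at 0.23, 0.41 and 0.03 at 24 h. The late endosomal syntaxin gene Stx8 was the exception, at -0.21, -0.22 and -0.21.

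The broadly used SNAP-25 relatives were above VAD at each time, while Snap25 itself had no steady direction. Snap23, the SNAP-25 form of non-neuronal cells, had ratios of 0.901, 1.15, 1.495 and 1.35 over VAD, 4, 8 and 24 h, with differences of 0.35, 0.73 and 0.58. Its probe sets both lay above VAD but differed in size, at 1.21 and 0.25 at 8 h. Snap29, which serves several internal membranes, was at 0.51, 0.62 and 0.44 from 1 probe set. Snap25, the neuronal and endocrine form, was at -0.30, 0.09 and -0.26 as a mean of 4 probe sets. At 24 h these read 0.43, 0.22, -0.25 and -1.42, so they gave no common direction. Snap91 shares the prefix but encodes the clathrin assembly protein AP180, and it was at 0.32, 0.26 and 0.51.

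VAMP genes, the vesicle-side SNAREs, stayed within 0.45 of VAD. Vamp3, the recycling endosome form, was below VAD at each time (-0.34, -0.45 and -0.39), as was Vamp5 (-0.28, -0.42 and -0.18). Vamp2, the main form of regulated secretion, was at 0.10, 0.05 and 0.41, and Vamp1 at 0.08, 0.09 and 0.24. At 24 h the 2 probe sets of Vamp1 read 0.61 and -0.14. Those of Vamp5 read -0.58 and -0.25 at 8 h, and -0.37 and 0.01 at 24 h. None of these gene values exceeds the SD of a single probe set. Vamp5 at 8 h and Vamp2 at 24 h, with 2 probe sets each, slightly exceed the SD for a mean of 2 (0.36 and 0.40). The syntaxin binding genes Stxbp2, a Munc18 form, and Stxbp5, which encodes tomosyn, a brake on SNARE assembly, were below VAD at 4 h (-0.41 and -0.16) and 8 h (-0.39 and -0.21). At 24 h they were at 0.05 and 0.03.

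Synaptotagmin genes, which encode calcium sensors of fusion and relatives that do not bind calcium, held both the largest positive and the largest negative member changes at 8 h. Syt2, a fast calcium sensor at nerve endings, had ratios of 1.10, 1.72, 2.93 and 2.65 in VAD and at 4, 8 and 24 h. The 8 h and 24 h values were its highest, and the differences from VAD were 0.65, 1.42 and 1.27. Syt1, its close relative, went the other way, with ratios of 0.823, 0.529, 0.502 and 0.400 in the same order. Its differences were -0.64, -0.71 and -1.04, and VAD was its highest array. Syt12, a synaptotagmin thought to act without calcium binding, had ratios of 0.633, 0.437, 0.581 and 0.231. It was far below VAD at 24 h (-1.45) but not at 8 h (-0.12). Each of these genes was read by 1 probe set.

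Of the other synaptotagmin genes, Syt4 had a mean of 0.79 at 24 h, from probe sets at 1.40 and 0.19 that come from the same database sequence. Syt9 was at 0.77 and Syt5 at 0.45 at 24 h, and at 0.10 and 0.69 at 8 h. Syt10 had ratios of 1.46, 2.17, 1.09 and 2.18 in VAD and at 4, 8 and 24 h, so its 8 h value was below both neighbours. Syt8 was below VAD at 4 h (-0.30) and 8 h (-0.56) and above it at 24 h (0.44). Over the 13 synaptotagmin genes the median was 0.03, -0.02 and 0.35. Above VAD were 8, 6 and 9 of them, beside 38.8%, 38.5% and 40.0% of all genes. They too were read only by probe sets without the prefix rc_. Of such probe sets over all genes, 46.1%, 46.0% and 48.6% lay above VAD.

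**Figure D2:**
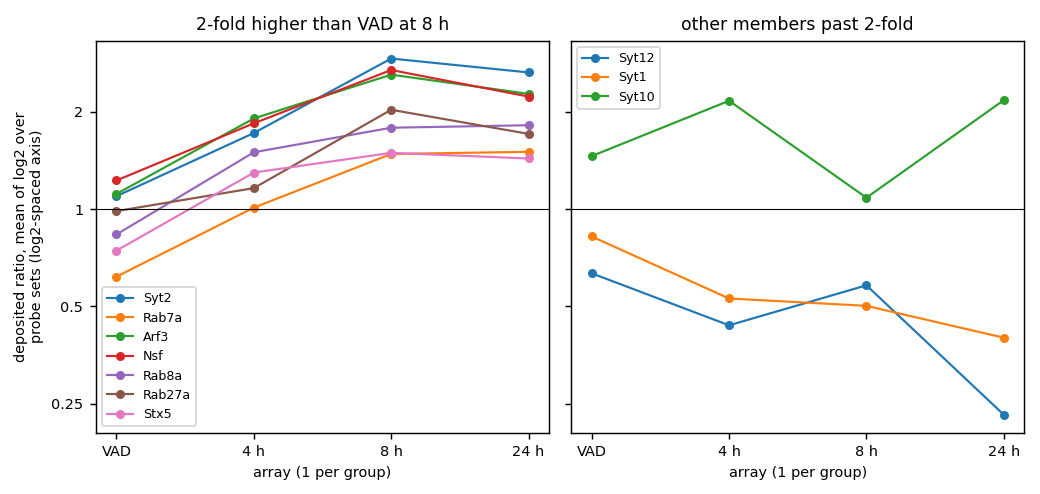
Deposited ratio (y axis, log2-spaced) on each of the 4 arrays (x axis, 1 per group) for the 7 members at least 2-fold above VAD at 8 h (left) and for Syt12, Syt1 and Syt10 (right). The 7 genes on the left are higher on all 3 retinol arrays than in VAD, Rab7a and Stx5 start well below 1, and on the right Syt1 and Syt12 are lowest at 24 h while Syt10 dips at 8 h.

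Rab GTPase genes split about evenly, with 14, 13 and 13 of 28 above VAD, beside 38.8%, 38.5% and 40.0% of all genes. Their medians were 0.00, -0.03 and -0.08. Rab7a, the Rab of late endosomes and lysosomes, had ratios of 0.618, 1.01, 1.48 and 1.51 in VAD and at 4, 8 and 24 h. VAD was the lowest of its 4 arrays, and the differences were 0.71, 1.26 and 1.28. Rab8a, which directs Golgi-derived vesicles to the plasma membrane and to cilia, had ratios of 0.835, 1.5, 1.79 and 1.82, with differences of 0.85, 1.10 and 1.12. Rab27a, which docks secretory granules and lysosome-related organelles, had ratios of 0.986, 1.16, 2.03 and 1.71. Its difference was small at 4 h (0.24) and 1.04 at 8 h and 0.79 at 24 h. Rab1a, which moves cargo from endoplasmic reticulum to Golgi, was just short of 2-fold, at 0.66, 0.96 and 0.85. Each of these 4 genes was read by 1 probe set.

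Early and recycling endosome Rabs were less uniform. Rab4a, of fast recycling, was at 0.46, 0.38 and 0.68, while Rab4b was at 0.01, 0.00 and -0.11. Rab5a, of early endosomes, averaged 0.42 at 24 h, from probe sets at 1.07 and -0.23, and Rab5b was at -0.17. Rab11b, of recycling endosomes, averaged 0.43, 0.58 and 0.71, yet its 3 probe sets read 1.67, 0.82 and -0.38 at 24 h. The first of them had a VAD ratio of 0.499. Rab11a was below VAD, at -0.19, -0.33 and -0.46, with probe sets from -0.86 to -0.05 at 24 h. These pairs are close paralogs, and how well their probe sets tell them apart was not examined.

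Several Rab genes of the Golgi and of sorting were below VAD, but not all. Rab29, of the Golgi and lysosomes, was at 0.57, -0.28 and 0.59, and Rab1a and Rab8a, given above, were higher than VAD. Rab2a, of transport between endoplasmic reticulum and Golgi, had ratios of 1.09, 0.842, 0.757 and 0.648 over VAD, 4, 8 and 24 h. Its difference of -0.74 at 24 h was the lowest of any Rab gene. Rab6a, of Golgi membranes, was at -0.22, -0.44 and -0.46, Rab14, between Golgi and endosomes, at -0.48, -0.18 and -0.24, and Rab13, of epithelial junction traffic, at -0.18, -0.39 and -0.37. Rab33b, of the Golgi, gave no common direction, with probe sets from the same sequence at 1.24 and -0.82 at 24 h. Among the secretory Rab3 genes, Rab3a, of synaptic and acrosomal exocytosis, was at 0.07, 0.36 and 0.43. Rab3b was at 0.32, -0.31 and 0.42, Rab3c at -0.31, 0.00 and -0.15 and Rab3d at -0.14, -0.14 and -0.09. The 8 h value of Rab3c was the mean of probe sets at 0.38 and -0.37. Rab3ip, which encodes Rabin8, the exchange factor that loads Rab8 with GTP, had ratios of 1.001, 0.707, 0.611 and 0.711. It was at -0.50, -0.71 and -0.49, opposite in sign to Rab8a. Rab2a, Rab6a and Rab3ip were read only by probe sets with the name prefix rc_, and Rab8a only by another kind. Over all genes at 24 h, rc_ probe sets had a median of -0.28 and the others -0.02. The part of this gap in the changes of these genes was not tested. Rab11fip5, a Rab11 effector gene, was at -0.02, 0.07 and -0.01.

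Arf GTPase genes, which recruit coats, had medians of 0.07, 0.22 and 0.16 over 6 genes. Arf3 had ratios of 1.12, 1.91, 2.61 and 2.27 in VAD and at 4, 8 and 24 h, so each retinol array was above VAD, by 0.78, 1.23 and 1.03. Arf1, its close paralog and the main recruiter of COPI, was at 0.65, 0.63 and 0.61, level from 4 h on. Arf1 and Arf3 were read by 1 probe set each, and how well these tell the paralogs apart was not examined. Arf5 was below VAD, at -0.28, -0.48 and -0.38. Arf2, Arf4 and Arf6, the last at the plasma membrane, were at 0.37, -0.06 and -0.13 at 24 h.

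The coat and adaptor genes were mostly below VAD. The COPI genes Copb1 and Copb2 were at -0.33 and -0.35 at 24 h. Of the 9 adaptor subunit genes 3, 2 and 2 lay above VAD at 4, 8 and 24 h, beside 38.8%, 38.5% and 40.0% of all genes. Their medians were -0.14, -0.31 and -0.22. Ap1s1, the small subunit of the Golgi adaptor AP-1, had ratios of 1.01, 0.697, 0.635 and 0.633, or -0.53, -0.67 and -0.67. Ap2m1 and Ap2s1, subunits of the endocytic adaptor AP-2, were at -0.47 and -0.44 at 24 h, and Ap3m2, of AP-3, at -0.32. Ap2b1 was at -0.01 from probe sets at 0.70, -0.23 and -0.50, and Ap2a2, also of AP-2, was at 0.15. Ap1b1 was the highest adaptor gene at 24 h, at 0.20 from probe sets at 0.45 and -0.04. The medians of adaptor subunits at 4, 8 and 24 h lay near those of all genes, at -0.09, -0.12 and -0.12. Copb1, Ap1s1, Ap1s3 and Ap2m1 were read only by rc_ probe sets, which over all genes read lower after retinol than the others. Without rc_ probe sets, and so over fewer genes, the adaptor median at 8 h was -0.12 in place of -0.31. The part of this gap in the changes of these genes was not tested.

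**Figure D3:**
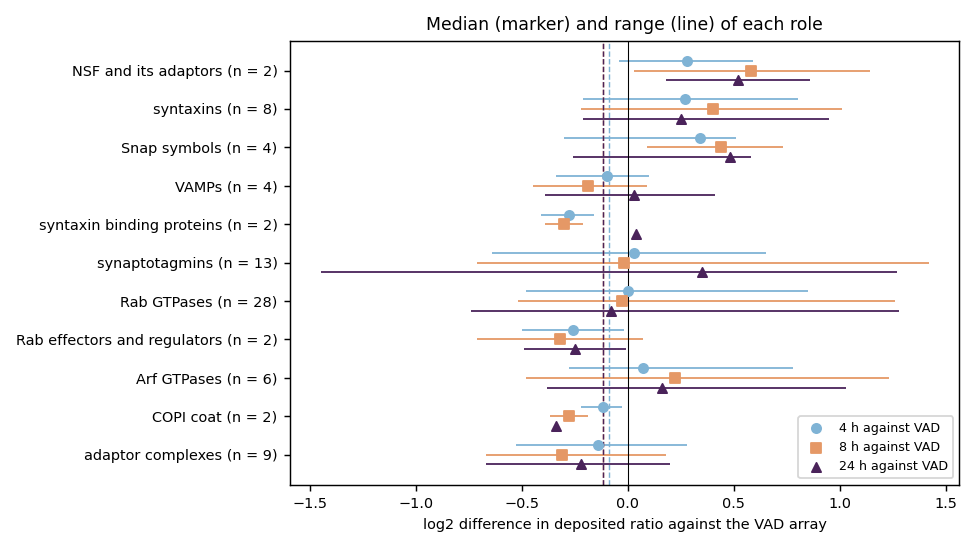
Median (marker) and lowest to highest member (line) of the log2 difference against VAD (x axis) for each role (rows, with the number of genes), at 4, 8 and 24 h. Dashed lines give the median of all genes at each time. Syntaxins and the 4 genes with a Snap symbol, which include Snap91, have medians right of 0 at all 3 times, and COPI and adaptor subunits left of 0, with wide overlap between roles.

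Between the retinol arrays, differences were smaller and the VAD array plays no part. From 4 h to 8 h no member passed 2-fold in either direction, beside 0.718% of all genes higher and 0.929% lower. Rab27a (0.81), Syt2 (0.77) and Syt5 (0.65) were the highest, and Syt10 was 1.995-fold lower, just short of 2-fold. From 8 h to 24 h Syt10 was 2.005-fold higher and Syt12 2.515-fold lower, each 1.25% of members, beside 0.507% and 0.655% of all genes. Syt8 was just short of 2-fold, at 1.993-fold higher. Rab29, a Rab of the Golgi and lysosomes, was also lower at 8 h than at its neighbours, at -0.85 from 4 h to 8 h and 0.87 from 8 h to 24 h. Rab3b averaged -0.63 and 0.73 for these steps, but its 2 probe sets differed in size: the first read -1.11 and 1.19, the second -0.15 and 0.27. From 4 h to 24 h no member was past 2-fold, beside 1.06% of all genes higher and 1.41% lower, and the extremes were Syt8 (0.74) and Syt12 (-0.92). Member medians for these steps were -0.01, 0.01 and 0.05, beside -0.03, 0.00 and -0.03 over all genes. They had 36, 42 and 47 members above 0, beside 44.0%, 49.9% and 46.0% of all genes.

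Of the 80 members, 29 were read by 2 or more probe sets, 64 in all. At 4, 8 and 24 h all probe sets of a gene lay on the same side of VAD for 14, 13 and 16 of these genes. At 24 h 8 of the 29 had probe sets at least 2-fold apart (Ap2b1, Rab11b, Rab33b, Rab5a, Snap25, Stx12, Stx5 and Syt4). In 8 genes at least 1 probe set passed 2-fold, and in no gene did all of them. The pooled SD between probe sets of a member was 0.42, 0.56 and 0.68 at 4, 8 and 24 h. Of the 7 genes past 2-fold at 8 h, Nsf and Stx5 had more than 1 probe set, and Syt2, Rab7a, Arf3, Rab8a and Rab27a had 1.

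**Figure D4:**
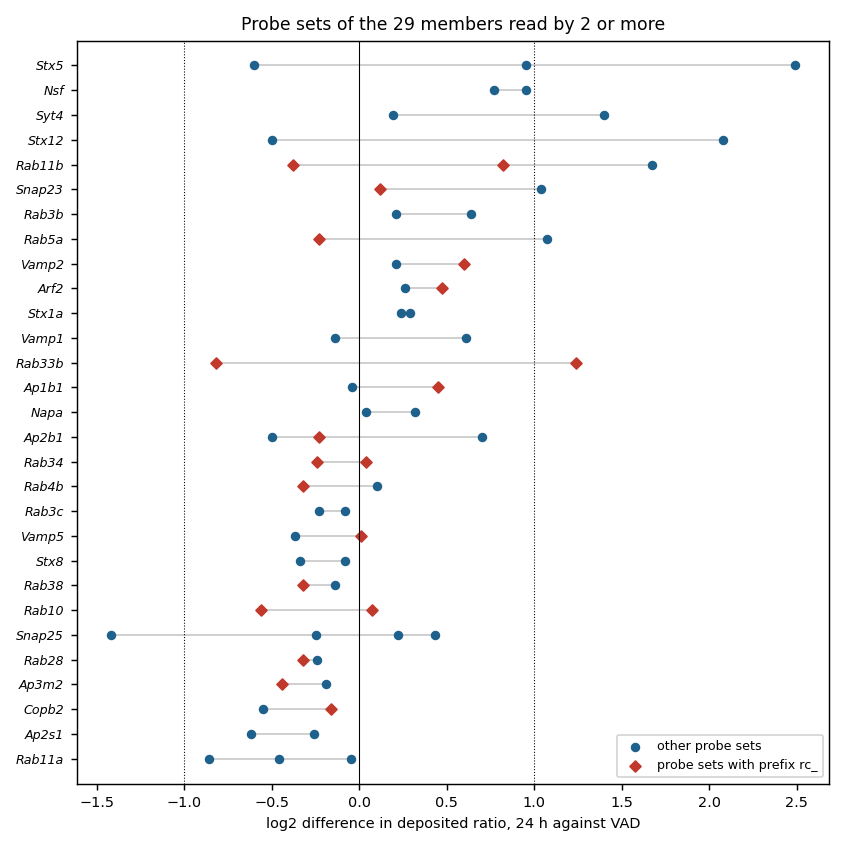
Log2 difference at 24 h against VAD (x axis) of every probe set (points) of the 29 members read by 2 or more (rows, by mean), with dotted lines at 2-fold. Diamonds are probe sets with the name prefix rc_ and circles all others. The probe sets of Nsf and Stx1a lie close together, and those of Stx5 run from -0.60 to 2.49.

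The baseline matters for part of these genes. In the VAD column 60.0% of members lay within 10% of a ratio of 1, beside 64.3% of all genes, and the members ranged from 0.608 (Stx12) to 1.46 (Syt10). Read against 1 in place of the VAD column, Arf3, Nsf, Rab27a and Syt2 were at least 2-fold higher at 8 h (all genes 2.74%), and Rab7a, Rab8a and Stx5 were not. At 24 h Arf3, Nsf, Syt10, Syt2 and Syt4 were 2-fold higher on that reading (all genes 3.21%), and Syt1 and Syt12 2-fold lower (all genes 3.65%).

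Other features of the arrays moved at the same times. The 9 probe sets of bacterial spike-ins, added in fixed amounts, had medians of -0.55, -0.58 and -0.71 at 4, 8 and 24 h against VAD. Taking these differences off would put the member median at 0.57, 0.59 and 0.75. Scaling each array on the median of its own spike-in values is a different calculation. It put the member median at 0.57, 0.50 and 0.66, with 14, 16 and 27 members at least 2-fold higher. The shares of all genes were then 9.42%, 10.3% and 15.7%. Signs of smaller changes, including those of Rab2a, Rab6a and the adaptors, are given for the values as deposited. With each array scaled on the spike-ins, the adaptor median at 8 h was 0.19 in place of -0.31. Rab2a and Ap1s1 kept their sign at 8 h on that scale, at -0.02 and -0.17. For actin, GAPDH and hexokinase the 5' probe set rose against the 3' one after retinol. Its log2 difference from VAD was higher by 0.71, 1.09 and 1.01 as the mean of 3 transcripts. Where members' probe sets lie along their transcripts was not examined. Lists of cell markers, chosen with earlier results of these data known, were read at the same times. Spermatid genes (13 of 15 measured) had medians of 0.61, -0.37 and -0.57. Spermatocyte genes (9 of 12) were at 0.55, -0.17 and -0.18, and Sertoli genes (15 of 19) at 0.33, 0.11 and 0.15. Spermatogonial genes (5 of 9) were at 0.23, 0.06 and 0.29, Leydig genes (8 of 10) at 0.13, 0.06 and -0.54, and leukocyte genes (9 of 11) at 0.11, 0.34 and 0.44. Peritubular myoid genes (7 of 7) were at -0.22, -0.39 and -0.24, endothelial genes (4 of 8) at -0.25, 0.06 and 0.07, and neuronal genes (5 of 8) at -0.19, -0.01 and -0.20. The part of these shifts in the members' changes was not tested.

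Other genes of the same traffic, from lists kept apart from the members, had medians closer to those of all genes than the members had. Of 160 listed, 93 were measured, with medians of -0.06, -0.15 and -0.09 at 4, 8 and 24 h, beside -0.09, -0.12 and -0.12 over all genes. Above VAD were 41, 36 and 38 of them, beside 38.8%, 38.5% and 40.0% of all genes. At least 2-fold higher were 0, 1 and 6 of the 93, and 0, 2 and 2 were at least 2-fold lower. The shares of all genes were 1.41%, 2.83% and 3.27% higher and 1.25%, 1.88% and 2.64% lower. Sec22a, a relative of the endoplasmic reticulum SNARE Sec22b, had ratios of 1.12, 1.88, 2.48 and 2.35 and was at 0.75, 1.15 and 1.07. Of the 7 genes measured from the list of other SNAREs and their relatives, it was the only 1 past 2-fold. Among 27 secretory vesicle genes, Rims1, a Rab3-binding active zone scaffold, was at 1.33 and Unc13b, a vesicle priming factor, at 1.02 at 24 h. Among 17 regulators of Rab and Arf proteins, Chm, the escort protein that presents Rabs for prenylation, was at 0.09, 0.13 and 1.09. Gdi2, which extracts Rabs from membranes, was at 0.71, 0.64 and 0.74. In the endocytic list of 21 genes the 24 h median was -0.06, with 9 above VAD, beside 40.0% of all genes. The clathrin genes Cltc, Cltb and Clta were at -0.46, -0.48 and -0.06. The dynamin gene Dnm3 was at -1.33 and the mitochondrial and peroxisomal fission dynamin gene Dnm1l, with 4 probe sets, at 1.16. Of 21 genes of COPII, exocyst and tethers, 5 were above VAD at 24 h (median -0.31), beside 40.0% of all genes. The Golgi stacking protein gene Gorasp1 was lowest, at -0.70, -0.81 and -1.40.

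Promoters of 68 of the 80 members were found by symbol in RefSeq's table for rat assembly GRCr8, as windows from 250 bases before to 50 after the gene's start. The upstream 250 bases of 6 members are shown. Rab7a, Syt2, Rab8a and Arf3 were at least 2-fold higher at both 8 and 24 h, both probe sets of Nsf were above VAD at each time, and Syt1 was 2-fold lower at 24 h. They run 5' to 3' on the gene's strand, and capitals mark GC boxes, the letters GGGCGG on either strand. They lie at chr4:122064186-122064435 (minus strand) for Rab7a, chr16:17709413-17709662 (minus) for Rab8a and chr10:89357384-89357633 (minus) for Nsf. Those of Arf3, Syt2 and Syt1 lie at chr7:131790980-131791229 (minus), chr13:48736872-48737121 (plus) and chr7:46244214-46244463 (minus).
Rab7a: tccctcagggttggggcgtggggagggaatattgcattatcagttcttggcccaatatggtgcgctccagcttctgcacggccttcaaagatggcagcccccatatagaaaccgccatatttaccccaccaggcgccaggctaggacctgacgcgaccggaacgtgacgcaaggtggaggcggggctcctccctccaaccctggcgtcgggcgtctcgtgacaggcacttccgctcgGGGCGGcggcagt
Rab8a: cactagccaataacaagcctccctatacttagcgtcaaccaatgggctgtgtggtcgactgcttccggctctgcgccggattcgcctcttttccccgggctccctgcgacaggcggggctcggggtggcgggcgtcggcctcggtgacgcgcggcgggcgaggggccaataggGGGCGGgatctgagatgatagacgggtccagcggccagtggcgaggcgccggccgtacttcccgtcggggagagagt
Arf3: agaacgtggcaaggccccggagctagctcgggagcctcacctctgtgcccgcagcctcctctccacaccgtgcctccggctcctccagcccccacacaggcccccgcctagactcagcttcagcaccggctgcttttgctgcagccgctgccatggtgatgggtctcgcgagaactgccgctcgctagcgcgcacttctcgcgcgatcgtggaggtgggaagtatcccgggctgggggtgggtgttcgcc
Nsf: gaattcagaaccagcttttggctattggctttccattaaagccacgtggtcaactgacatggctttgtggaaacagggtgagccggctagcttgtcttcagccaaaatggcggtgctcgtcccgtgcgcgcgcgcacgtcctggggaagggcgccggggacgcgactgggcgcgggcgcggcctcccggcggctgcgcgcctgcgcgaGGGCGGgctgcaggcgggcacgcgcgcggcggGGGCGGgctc
Syt2: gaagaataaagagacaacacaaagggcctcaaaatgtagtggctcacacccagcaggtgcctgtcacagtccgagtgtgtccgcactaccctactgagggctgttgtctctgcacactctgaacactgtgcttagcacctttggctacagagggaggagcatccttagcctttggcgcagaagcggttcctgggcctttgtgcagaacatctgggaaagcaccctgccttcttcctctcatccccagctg
Syt1: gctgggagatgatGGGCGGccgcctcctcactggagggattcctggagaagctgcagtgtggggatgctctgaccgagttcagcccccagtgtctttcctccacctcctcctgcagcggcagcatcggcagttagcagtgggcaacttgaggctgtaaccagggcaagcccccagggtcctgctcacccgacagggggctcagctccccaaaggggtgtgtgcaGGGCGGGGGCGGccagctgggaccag

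The upstream stretches of Rab7a and Rab8a hold 1 GC box each, that of Nsf 2 and that of Syt1 3, and those of Syt2 and Arf3 hold none. Over the whole windows, GGGCGG was found in 54 of 68 members (79.4%), beside 56.2% of 3879 genes on the array and 34.9% of 27457 promoters in the table. Members' windows were also rich in G and C, with a median of 64.3%, beside 60.0% for array genes and 52.3% for all promoters. The retinoic acid receptor half-site AGGTCA, on either strand, was in 9 members (13.2%), beside 13.5% of array genes and 15.7% of all promoters. It was in none of the 6 stretches shown. No member's window held 2 half-sites in the same orientation spaced by 5 or by 2 bases, and neither did any of the 3879 array genes. These matches describe letters in a short window and are no evidence on binding.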

How the data were processed

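The authors' deposited values are linear ratios per probe set for 4 arrays, 1 per group. Per the submitters' processing notes, GCOS and MAS5 were used, with no version given. How signals became ratios, what the ratios refer to, any pooling and any scaling of arrays: not given in the sources used here.

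Of 8799 probe sets, 59 are controls, 7006 carry 1 gene symbol, 308 several and 1426 are not listed in the platform annotation. Symbols were updated through Entrez IDs in RefSeq's GRCr8 table (6985 found), which changed no member's symbol. Ratios were put on the log2 scale, averaged per gene over its probe sets and subtracted between arrays (pandas 2.3.3, numpy 2.4.6, Python 3.11.15). Genes were counted past 2-fold. No test fits 1 array per group. Error was the SD of the difference between 2 probe sets of a gene, over the square root of 2. The calculation was tested on simulated data.

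The members and lists were chosen with earlier results of these data known. Genes named are members past 2-fold, the 5 highest and 5 lowest per time against VAD, the extremes of each role at 24 h, those with 3 or more probe sets and the core fusion genes. Other members named were chosen after their values were seen, as were the genes outside the members and the promoters shown.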

Additional observations from a re-analysis of the deposited data

Results flagged for a closer look

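A pair of probe sets left out of the comparisons, because the annotation names both Rab1a and Rab1b for them, were higher after retinol than in VAD. The first had ratios of 0.658, 1.47, 1.95 and 1.98 in VAD and at 4, 8 and 24 h, with a difference of 1.59 at 24 h. The second, from the same database sequence, had ratios of 0.980, 1.56, 1.79 and 1.99, with a difference of 1.02 at 24 h. Rab1a itself, read by 1 other probe set, was at 0.85 at 24 h. With 1 array per group these differences have no replicate check.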

How the results depend on the processing

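No paired analysis was possible because each group is 1 array. The platform's own symbols changed none of the member counts and medians. The median over probe sets gave 6 members 2-fold higher at 8 h in place of 7, a 24 h median of 0.10 in place of 0.04 and 44 members above VAD at 24 h in place of 43; over 8 h to 24 h the median was 0.02 and 43 were above 0. Its other member counts and medians were the same. A threshold of 1.5-fold gave 8, 13 and 16 members higher at 4, 8 and 24 h against VAD and 1, 3 and 4 lower (all genes 6.17%, 8.53% and 8.99% higher, 6.63%, 12.3% and 14.1% lower). From 4 h to 8 h it gave 3 higher and 3 lower (all genes 3.61% and 3.40%), from 8 h to 24 h 5 higher (3.08%), and from 4 h to 24 h 2 higher and 1 lower (5.24% and 5.43%). Centring each array on all genes put the member medians at 0.11, 0.12 and 0.16 at 4, 8 and 24 h and left 1 member 2-fold lower at 24 h (1.69% of all genes). Spike-in scaling gave medians of 0.57, 0.50 and 0.66 with 14, 16 and 27 members 2-fold higher (9.42%, 10.3% and 15.7% of all genes) and 0 lower at 24 h. For the steps 4 h to 8 h, 8 h to 24 h and 4 h to 24 h its medians were -0.06, 0.13 and 0.12, with 1 member lower in the first and 2 higher in the second. Among members with 2 or more probe sets, 2 were 2-fold higher at 8 h, and at 24 h 0 were higher and 0 lower against VAD, and 0 and 0 against 8 h. Their medians were 0.18 at 24 h against VAD and 0.10 at 24 h against 4 h. Among the 48 members with a VAD ratio within 10% of 1, 2 were higher at 8 h, 1 higher and 0 lower at 24 h, and 0 either way from 8 h to 24 h, with a median of 0.00 at 24 h against 4 h. Fewer genes enter these 2 settings. The probe set with the highest mean gave 1 and 9 members higher at 4 and 24 h, a 4 h median of 0.07, 1 lower from 4 h to 8 h, 3 higher from 8 h to 24 h and 2 higher from 4 h to 24 h. Ratios read against 1 gave 1 higher and 1 lower at 4 h, 4 higher at 8 h and medians of -0.04 and -0.07. Leaving out probe sets with the prefix rc_, chosen after seeing the data, gave medians of 0.07, 0.09 and 0.17 at 4, 8 and 24 h, with 1 member higher at 4 h (1.73% of 3242 genes) and 7 at 24 h (4.87%). The median was then 0.02 from 4 h to 8 h and 0.15 from 4 h to 24 h. Where no cause is given, the cause was not tested. With no signal levels or replicates, what depth limits cannot be read from these values.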

Other observations

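Probe sets whose names start with rc_, a prefix given to reverse complements of expressed sequence tags, read lower after retinol than the others, among members and on the whole array. At 24 h against VAD the 31 such probe sets of members had a median of -0.23, with 10 above VAD, and the other 84 a median of 0.16, with 50 above VAD. Over all genes the medians were -0.28 (2449 probe sets) and -0.02 (4557 probe sets). At 4 h the members' medians were -0.08 and 0.06 and at 8 h -0.28 and 0.03. Of the 13 members with both kinds, the rc_ mean was the lower in 8 at 24 h, with a median gap of 0.18, and over all 476 genes with both kinds the gap was 0.17. Without rc_ probe sets 66 members remained measured, and Rab11b, Rab5a and Snap23 joined those at least 2-fold higher at 8 h and 24 h. That made 10 of 66 members 2-fold higher at 8 h, beside 3.86% of 3242 genes, and 7 at 24 h, beside 4.87%. The member median was then 0.17 at 24 h, beside -0.01 for all 3242 genes. The cause of the gap was not tested.

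Other letters searched in the members' promoter windows were close to the rest of the array or rare. The E-box CACGTG, the core of the site bound by the lysosomal regulator TFEB, was in 8 of 68 members (11.8%), among them Nsf, Rab5a, Snap29 and Stx6, beside 8.48% of array genes. The CCAAT box was in 28 (41.2%), beside 38.3%. The cyclic AMP response element TGACGTCA was in Ap2b1, Napa and Vamp1 (4.41%), beside 2.42%.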
